A study of Homo sapiens with 4 samples.

Results

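MIR34A, PVT1, NEAT1 and LINC-PINT are non-coding RNA genes known as p53 targets, and p53 binding at them was read from 4 lists of chromatin immunoprecipitation sequencing (ChIP-seq) peaks. A peak was assigned to a gene when its summit, the base with the highest pileup of fragments, lay in the gene body or within 35 kb of it. Of 6849 peaks in the 4 lists, 16 met this rule, and they fell in 8 sites at 4 of 64449 annotated genes. The cells were H1299, a line from a human lung cancer that has no p53 of its own. They expressed a tetracycline (Tet) repressor and carried WT p53 or K120R p53 under Tet control. In K120R, arginine replaces lysine 120 of the DNA-binding domain. Cells of either form were left untreated or given Tet for 24 h, which makes 4 conditions with 1 library each. The transgenes came by lentiviral infection, and whether a line was 1 clone or a pool is not given in the sources used here. With no replicates, no test was possible, and every interval below covers counting error only.

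p53 binds DNA as a tetramer at a 20-bp response element (RE) made of a pair of 10-bp half-sites, each with a 4-bp core. The consensus RE has purines before and pyrimidines after each core, and positions 3, 8, 13 and 18 are the bps next to the cores. p53 can act through non-coding transcripts as well as through protein-coding genes. MIR34A encodes miR-34a, which represses mRNAs of cell cycle and survival proteins. PVT1 is the long non-coding RNA gene downstream of MYC, and the miRNA MIR1204 comes from the same transcription unit. NEAT1 is the scaffold RNA of paraspeckles, which are bodies of the cell nucleus. LINC-PINT is a p53-induced long non-coding RNA that has been linked to Polycomb repression.

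The REs under the strongest peaks of MIR34A, NEAT1 and LINC-PINT are shown because they differ in the bps beside the cores. Capitals mark positions 3, 8, 13 and 18, counted from the 5′ end of each RE. The first 2 come from the study's list of REs and the last from the GRCh37 reference, as the 20-bp window under the peak with the fewest mismatches to the consensus RE.
MIR34A RE: ggGcttgCctggGcttgTtc
NEAT1 RE: gaGcaagCctggGcttgCca
LINC-PINT RE: ttAcatgTctcaAcatgTtc
The MIR34A RE holds 3 G/C bps at these positions, the NEAT1 RE holds 4 and the LINC-PINT RE holds 0. The MIR34A RE had 0 mismatches to the consensus RE, as did 11.5% of the 1334 listed REs that had a WT peak after Tet. The NEAT1 RE had 1 mismatch and the LINC-PINT RE had 3, none of them in a core. The RE near the PVT1 start, listed for MIR1204, had 2 mismatches and 0 G/C bps at the 4 positions, so it stood with LINC-PINT on this measure.

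In their surroundings of 100 bases on the plus strand of GRCh37, with the RE in capitals, these REs read as follows. They lie at chr1:9242163-9242262 for MIR34A, at chr11:65188751-65188850 for NEAT1 and at chr7:130536264-130536363 for LINC-PINT.
MIR34A surroundings: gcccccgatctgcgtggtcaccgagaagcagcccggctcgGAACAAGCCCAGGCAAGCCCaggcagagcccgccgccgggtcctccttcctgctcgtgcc
NEAT1 surroundings: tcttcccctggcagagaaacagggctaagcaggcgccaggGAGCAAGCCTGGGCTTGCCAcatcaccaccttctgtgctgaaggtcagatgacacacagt
LINC-PINT surroundings: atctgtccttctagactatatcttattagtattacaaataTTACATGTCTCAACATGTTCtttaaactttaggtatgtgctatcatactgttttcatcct
On this strand the MIR34A RE appears as the reverse complement of the listed sequence, and the other 2 as written.

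Each of the 4 genes had at least 1 peak in WT untreated, WT Tet-treated and K120R Tet-treated cells. Across the annotation, 16.0% of genes had a WT Tet-treated peak by the same rule, 2.17% had a WT untreated peak, 7.72% had a K120R Tet-treated peak, and 1.30% had all of them. The members were picked as p53 targets, and PVT1 and LINC-PINT are long, so these shares are background and not a comparison of like genes. Of the 1171 genes of at least 300 kb, 45.1% had a WT Tet-treated peak, 6.40% a WT untreated peak and 22.6% a K120R Tet-treated peak. By gene, MIR34A and LINC-PINT had 1 peak in each of these lists. PVT1 had 1 peak with WT untreated, 2 with WT Tet-treated and 3 with K120R Tet-treated cells, and NEAT1 had 1, 1 and 2. The WT untreated and K120R peaks of LINC-PINT were weak, with -log10 q values of 6.32 and 7.41, and at a minimum of 10 this gene kept its WT Tet-treated peak alone. In K120R untreated cells, none of the 12 peaks lay at these genes.

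The libraries held 33059650 to 34857204 ChIP tags, and the lists held 488 peaks for WT untreated, 4326 for WT Tet-treated and 2023 for K120R Tet-treated cells. Fold enrichment is the pileup over the local background from the input, with 1 added to both. The peak caller counted each tag as a fragment of 170 bp in the WT Tet-treated library and of 64 or 68 bp in the others. The 64 and 68 bp are shorter than the reads of 75 bp. Values of the WT Tet-treated list are thus not on the scale of the rest. Peaks are therefore also placed by the rank or percentile of their fold enrichment within their own list. The lists differ in length, so neither is read as a change between lists. Fragment numbers are the fragments over the summit, with exact Poisson 95% intervals. Where no peak is reported, binding below the calling threshold is possible. The smallest called peaks rested on 7 fragments in WT untreated, 12 in WT Tet-treated, 16 in K120R untreated and 8 in K120R Tet-treated cells.

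**Figure D1:**
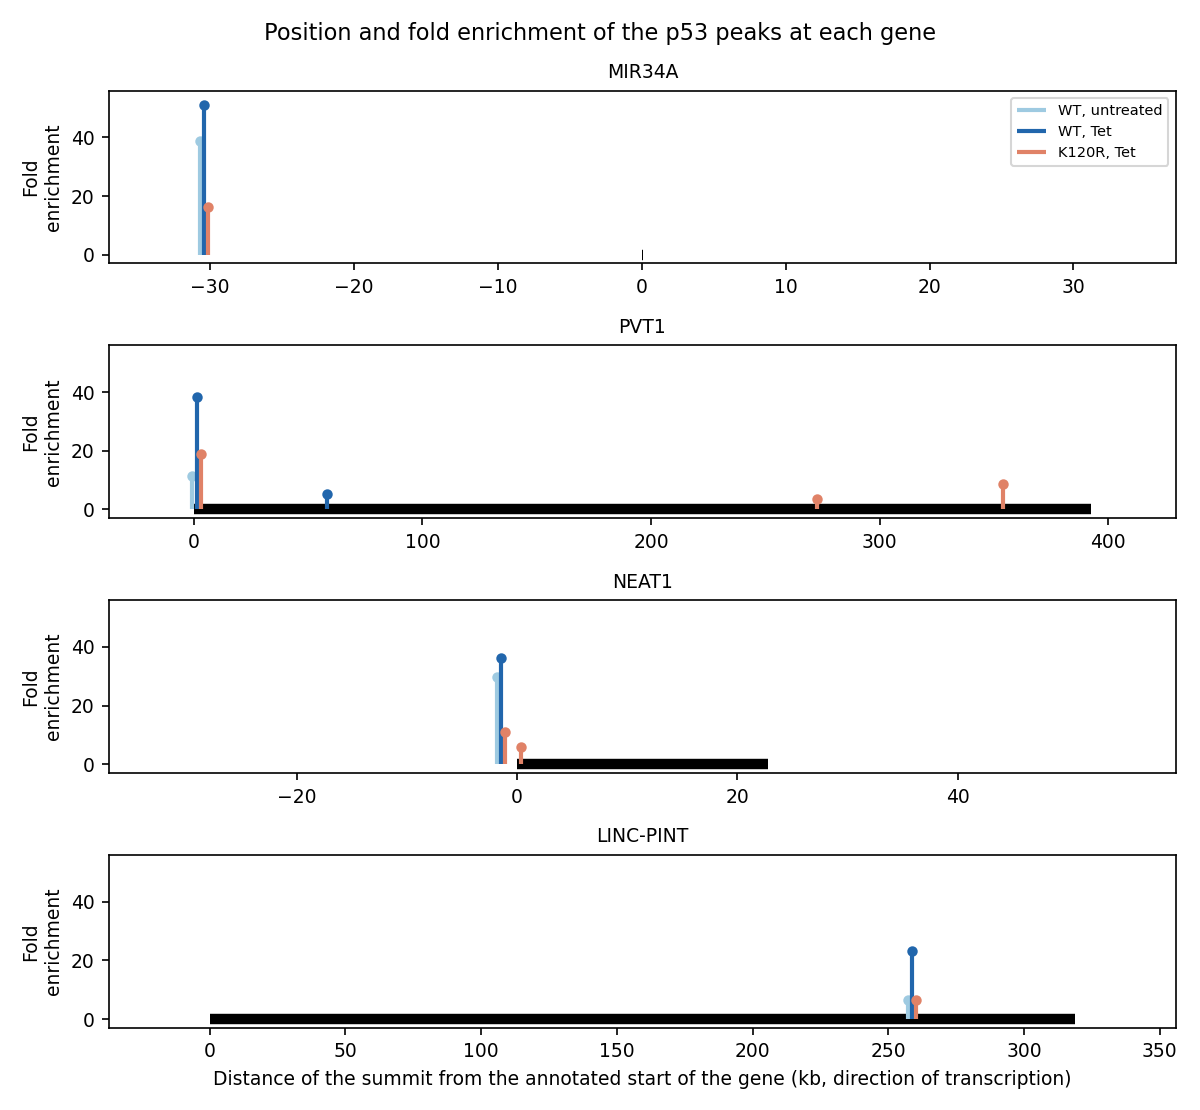
Position of each peak summit (kb from the annotated gene start, in the direction of transcription) against fold enrichment in its own list, with the gene as a black bar and the WT untreated and K120R stems shifted slightly sideways so that they can be told from the WT Tet-treated ones. MIR34A was bound 30.4 kb before its hairpin, PVT1 and NEAT1 near their starts, and LINC-PINT 259 kb into the gene.

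MIR34A lies on the minus strand of chromosome 1 (9211727 to 9211836), and its single site lay 30.4 kb upstream, with the WT Tet-treated summit at 9242229. This place is an exon of MIR34AHG, the host transcript of miR-34a, 222 bp downstream of one of its transcript starts. It is also an exon of LNCTAM34A, a long non-coding RNA annotated at the same locus, 5 bp from a transcript start. In WT untreated cells the peak had 69 fragments (53.7 to 87.3) and a fold enrichment of 38.7, the 7th of 488. In WT Tet-treated cells it had 314 fragments (280 to 351) and a fold enrichment of 50.9, the 43rd of 4326. In K120R Tet-treated cells it had 51 fragments (38.0 to 67.1) and a fold enrichment of 16.2, the 83rd of 2023. The site was thus in the top 5% of each of these lists. The RE lay inside all these peaks, and the summits were 21.5, 16.5 and 14.5 bp from its centre. The product of the gene is the 22-nt miR-34a-5p, whose seed (bases 2 to 8, in capitals, RefSeq) directs it to its target mRNAs.
miR-34a-5p: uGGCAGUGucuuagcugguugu

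NEAT1 lies on the plus strand of chromosome 11 (65190245 to 65213011), and its main site was 1.42 kb upstream of the start, outside any annotated gene and 98 bp before an unnamed transcript (ENSG00000290057). Its RE (65188791 to 65188810) was the only RE of the shared sites with a G/C bp at all 4 positions. WT p53 gave 53 fragments (39.7 to 69.3) and a fold enrichment of 29.9 without Tet, and 224 fragments (196 to 255) and 36.3 with Tet. K120R with Tet gave 26 fragments (17.0 to 38.1) and a fold enrichment of 11.0. The site ranked 15th of 488 in the WT untreated list, 132nd of 4326 in the WT Tet-treated list and 276th of 2023 in the K120R list. Its K120R peak was 295 bp long, against 477 bp for the WT untreated peak, which was called with nearly the same fragment length.

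A second NEAT1 peak was called with K120R alone, at the start of the gene. It covered 166 bp (chr11:65190118-65190283), and its summit lay 2 bp after the annotated NEAT1 start, in exon sequence. It rested on 12 fragments (6.20 to 21.0), a fold enrichment of 5.85 and a -log10 q of 4.52, at percentile 31.7 of its list. No WT peak was called there. The sequence of the whole peak is shown because this is the only peak at a member that covered the annotated start of its gene, and capitals mark the best match to the consensus RE, which had 4 mismatches, 1 of them in a core. With a spacer of 6 bp between the half-sites, the best match there had 3 mismatches.
NEAT1 start peak: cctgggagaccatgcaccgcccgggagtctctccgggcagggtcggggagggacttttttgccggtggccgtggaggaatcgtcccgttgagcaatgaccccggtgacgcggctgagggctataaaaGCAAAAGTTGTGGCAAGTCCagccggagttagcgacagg
For comparison, the fewest mismatches under a peak had a median of 2.00 over all WT Tet-treated peaks and 4.00 over the 873 K120R peaks without a WT peak. These medians were not matched for peak length, and a longer peak offers more windows to the search. The 873 K120R peaks had a median length of 150 bp.

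PVT1 lies on the plus strand of chromosome 8 (128806772 to 129199347) and had 4 of the 8 sites. The site near its start had its WT Tet-treated summit at 128808030, 1.26 kb into the annotated gene, in an exon and 11 bp from a PVT1 transcript start. WT p53 gave 31 fragments (21.1 to 44.0) and a fold enrichment of 11.4 without Tet, and 225 fragments (197 to 256) and 38.5 with Tet. K120R gave 80 fragments (63.4 to 99.6) and a fold enrichment of 18.9. PVT1 ranked 111th of 488 in WT untreated cells, 114th of 4326 in WT Tet-treated cells and 47th of 2023 in K120R Tet-treated cells. Within the WT untreated list it stood below MIR34A and NEAT1, and within the K120R list it stood above both.

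The other 3 PVT1 sites were each found in 1 library and lay in introns. The WT site was 58.3 kb into the gene (summit 128865044) and 1598 bp before a PVT1 transcript start. In WT Tet-treated cells it had 32 fragments (21.9 to 45.2), a fold enrichment of 5.40 and a percentile of 24.4. The RE listed for PVT1 lies under this peak and had 4 mismatches, 1 of them in a core, and 0 G/C bps at the 4 positions. With a spacer allowed between the half-sites, the best match there had 3 mismatches and 3 G/C bps across a 3-bp spacer, so the G/C count of this site depended on how the RE was read. The K120R sites were 271 and 352 kb into the gene. The first had 14 fragments (7.65 to 23.5), a fold enrichment of 3.52 and a -log10 q of 1.64, and it ranked 2001st of the 2023 peaks of its list. The second had 21 fragments (13 to 32.1), a fold enrichment of 8.74 and a percentile of 73.4, and it lay 3.38 kb from MIR1208, a miRNA hairpin inside PVT1. Of the 1171 genes of at least 300 kb, 10.8% had a K120R Tet-treated peak that overlapped no WT peak, and 2.13% had 2 or more, as PVT1 did. Also inside PVT1, the hairpins MIR1205 and MIR1207 were 104 and 15.9 kb from the nearest K120R Tet-treated summit. The nearest WT Tet-treated summit was 108 kb from MIR1205, 196 kb from MIR1207 and 297 kb from MIR1208. No distance was taken for MIR1204, for which the RE near the PVT1 start is listed.

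LINC-PINT lies on the minus strand of chromosome 7 (130476023 to 130794935), and its single site was in an intron 259 kb from the annotated start, with the WT Tet-treated summit at 130536289. The nearest annotated start was that of LINC00513, 2190 bp away. The nearest start of a LINC-PINT transcript lay 17443 bp upstream of the summit. WT p53 gave 15 fragments (8.40 to 24.7) and a fold enrichment of 6.37 without Tet, and 110 fragments (90.4 to 133) and 23.3 with Tet. K120R gave 19 fragments (11.4 to 29.7) and a fold enrichment of 6.61. The site ranked 309th of 488 in the WT untreated list, 338th of 4326 in the WT Tet-treated list and 1068th of 2023 in the K120R list. It was the weakest of the shared sites in all 3 lists. The untreated peak was 67 bp long and did not include the RE shown above. The K120R peak included it, with its summit 103.5 bp from the RE centre.

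**Figure D2:**
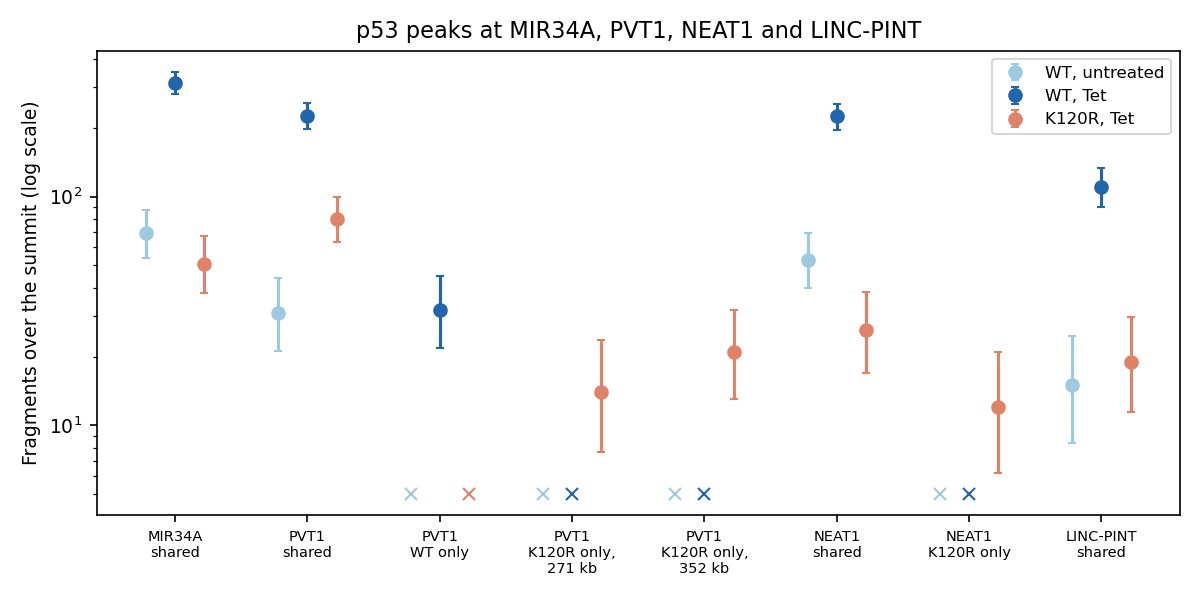
Fragments over the summit (log scale) at the 8 sites in 3 libraries, as points with exact Poisson 95% intervals, with a cross at the foot where no peak was called. WT Tet-treated values, from 110 to 314 at the shared sites, are counted with longer fragments than the other libraries, and the sites found in 1 library had 12 to 32 fragments.

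Of the 5 WT Tet-treated peaks at these genes, 4 overlapped a K120R peak, against 25.2% of all WT Tet-treated peaks. Also 4 overlapped a WT untreated peak, against 9.27% of the list. The peak missing from both counts was the one 58.3 kb into PVT1. From the other side, 4 of the 7 K120R peaks overlapped a WT Tet-treated peak (56.8% of the whole K120R list), and all 4 WT untreated peaks overlapped a K120R peak (53.3% of the untreated list). Strong WT peaks mostly had a K120R peak wherever they lay. Of the 43 WT peaks at least as enriched as that of MIR34A, 90.7% had a K120R peak, as did 86.8% of the 114 at the level of the PVT1 start site, 84.8% of the 132 at that of NEAT1 and 74.6% of the 338 at that of LINC-PINT. A WT untreated peak was present at 100, 93.9, 92.4 and 68.6% of the same sets. Peaks in the other lists were therefore common at the strength of these 4 sites. Of the 3271 WT peaks at least as enriched as that in the PVT1 intron, 29.9% had a K120R peak and 12.1% a WT untreated peak.

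The WT untreated and K120R Tet-treated libraries had nearly the same fragment length (64 and 68 bp) and depth. Their fragment numbers could therefore be set side by side. Over the 260 places with a peak in both, the median ratio of K120R Tet-treated to WT untreated fragments was 1.21 (quartiles 0.885 and 1.83), and 86 places were below 1. A place enters only with a called K120R peak, so weak WT untreated places could not have a low ratio, and 0 of the 21 with at most 10 WT untreated fragments were below 1. Each site was therefore set beside the places whose WT untreated fragments lay within 1.5-fold of its own, a choice made after seeing the data. NEAT1 had 26 against 53 fragments, a ratio of 0.491 (counting interval 0.294 to 0.799), and 4 of the 38 places of like strength were lower (median 0.769). MIR34A had 51 against 69, a ratio of 0.739 (0.504 to 1.08), which was the median of the 29 places of like strength. By fragments MIR34A was thus ordinary for its strength, and its interval included equal numbers. The PVT1 start site had 80 against 31, a ratio of 2.58 (1.69 to 4.04), and 3 of the 82 places of like strength were higher (median 1.00). LINC-PINT had 19 against 15, a ratio of 1.27 (0.610 to 2.68), against a median of 1.44 over 148 places of like strength. The intervals of NEAT1 and PVT1 did not overlap. These ratios took no account of local background, which at MIR34A was 0.808 in WT untreated and 2.00 in K120R Tet-treated cells. At NEAT1 it was 0.804 and 1.29, at PVT1 1.80 and 3.00, and at LINC-PINT 1.51 and 1.84. Fold enrichment was 38.7 and 16.2 at MIR34A and 29.9 and 11.0 at NEAT1. At PVT1 it was 11.4 and 18.9, and at LINC-PINT 6.37 and 6.61. On that scale MIR34A, like NEAT1, was lower with K120R. Both forms and the Tet treatment differ between these libraries, so the form of p53 and its amount cannot be told apart here.

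**Figure D3:**
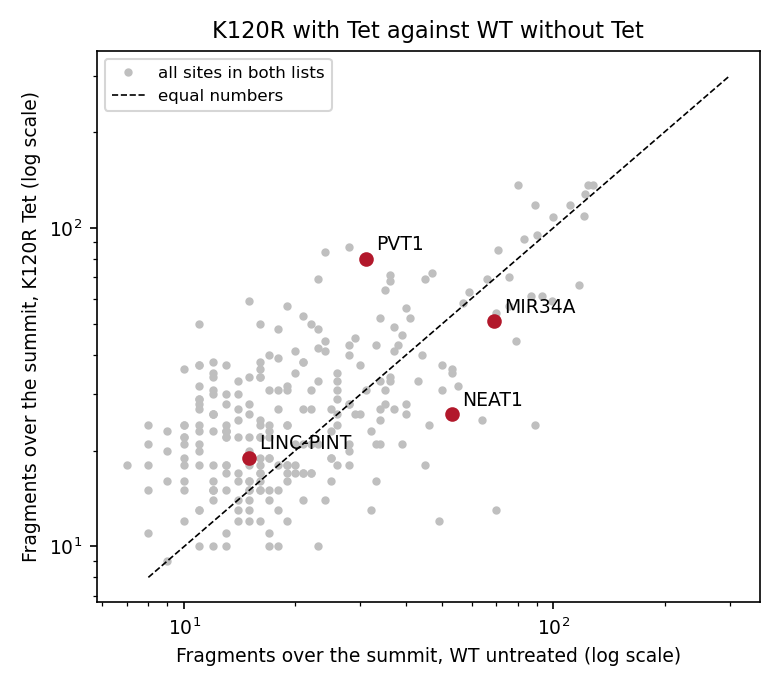
Fragments over the summit in WT untreated (horizontal, log scale) and K120R Tet-treated cells (vertical, log scale) at the 260 places with a peak in both lists, in grey, with the members in red and the dashed line at equal numbers. PVT1 lies above the line (31 and 80 fragments), NEAT1 below it (53 and 26), and MIR34A and LINC-PINT nearer to it.

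The order of these ratios was set beside the RE sequences shown above. Among listed REs with a peak in both libraries, the median ratio was 2.03 for 24 REs with 0 G/C bps beside the cores, 1.30 for 73 with 1, 1.05 for 79 with 2, 0.892 for 28 with 3 and 0.679 for 4 with 4. The classes were not matched for WT untreated strength, to which the ratio is tied by the calling of K120R peaks. These medians include the listed REs of the members. MIR34A, with 3 G/C bps, and NEAT1, with 4, were each below the median of their class and inside its range (0.186 to 2.91 and 0.245 to 1.32). NEAT1 is itself 1 of the 4 REs of its class. The PVT1 start site, with 0, was above the median of its class, and LINC-PINT, also with 0, was below it. The counting interval of each of these sites included the median of its class. The RE of LINC-PINT is not a listed one, and its WT untreated peak did not include it. Among listed REs with a WT Tet-treated peak at least as enriched as that of NEAT1, a K120R peak was called at 12 of 12 with 0 G/C bps, 42 of 42 with 1, 38 of 45 with 2, 12 of 23 with 3 and 2 of 3 with 4. Over all listed REs with a WT Tet-treated peak of any strength, the shares were 77.6, 55.7, 34.3, 18.3 and 14.3%. MIR34A and NEAT1 are thus among the strong WT sites with 3 or 4 G/C bps that kept a K120R peak, and at 12 places of such strength and content no K120R peak was called.

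**Figure D4:**
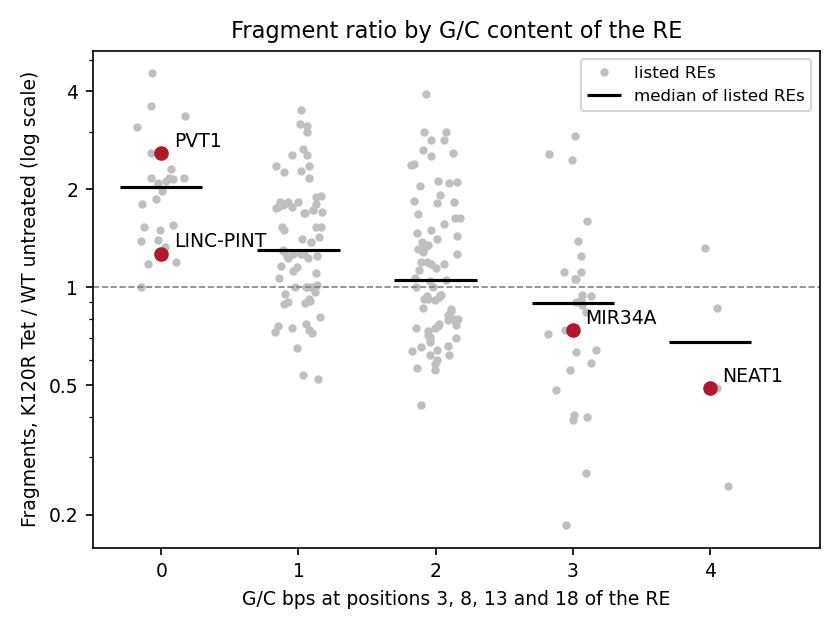
Ratio of K120R Tet-treated to WT untreated fragments (log scale) against the G/C bps beside the cores of the RE (0 to 4), with listed REs in grey (spread sideways at random), the class medians as bars and the members in red. The medians go from 2.03 at 0 to 0.679 at 4, and the members from 2.58 (PVT1) to 0.491 (NEAT1). LINC-PINT is placed by an RE found in the reference, which its WT untreated peak did not include.

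The listed REs with the most similar set of fold enrichments over the 4 lists were found by Euclidean distance in log2(fold enrichment + 1), with 0 where no peak was called. For MIR34A they were those of MTHFD1L, FGF2 and IER5 (distances 0.339, 0.530 and 0.581), with 2, 2 and 3 G/C bps at the 4 positions. For NEAT1 they were MAP4K4, DCP1B and HNRNPA3 (0.279, 0.375 and 0.529), with 2, 3 and 3. For the PVT1 start site they were DDX10, PARM1 and DTWD1 (0.207, 0.278 and 0.312), with 0, 0 and 1. For the RE in the PVT1 intron, with a peak in 1 list, they were BTN3A2, TRIB2 and RAD51B, whose fold enrichments were 5.40, 5.42 and 5.43 and which had 2, 1 and 3 G/C bps against 0 in the listed PVT1 RE.

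The 35-kb limit mattered for MIR34A, just inside it at 30.4 kb, and for places just outside. WT Tet-treated peaks lay 36.3 and 40.5 kb from NEAT1, with fold enrichments of 3.03 and 3.88. Before the start of LINC-PINT, introns of MKLN1 held a peak at 44.4 kb (fold enrichment 19.4 with WT p53 and Tet, 16.9 with K120R, an RE with 0 G/C bps). A further one at 78.4 kb had 20.2 with WT p53 and Tet and 6.90 without Tet, no K120R peak and an RE with 2 G/C bps.

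A list of 40 other non-coding RNA genes described as p53-linked was read by the same rule, and 32 of them were matched to the annotation. A WT Tet-treated peak was present at 12 (37.5%), a WT untreated peak at 4 (12.5%), a K120R Tet-treated peak at 8 (25.0%) and a K120R untreated peak at 0. The shares over all annotated genes were 16.0, 2.17 and 7.72% for the first 3 of these lists. The strongest WT peaks of the 12 were 10 distinct peaks, 3 of which overlapped a K120R peak, near the 25.2% of all WT Tet-treated peaks. PANDAR and DINOL, both transcribed beside CDKN1A, shared a peak with fold enrichments of 40.2 in WT untreated, 49.7 in WT Tet-treated and 34.4 in K120R Tet-treated cells. MIR3189, a miRNA in an intron of GDF15, had a peak 21.6 kb away with 25.7, 34.1 and 19.8.

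MIR34B and MIR34C, the paralogs of MIR34A, shared 1 WT Tet-treated peak and differed from MIR34A in the other lists. The peak (chr11:111380987-111381548) had its summit 2387 bp before MIR34B and 49 bp before the start of their host gene MIR34BHG. It rested on 134 fragments (112 to 159), with a fold enrichment of 43.0 at percentile 98.3. No peak was called there in WT untreated or in K120R Tet-treated cells, whereas MIR34A had 69 and 51 fragments in these libraries. Of the 76 WT Tet-treated peaks at least as enriched, 8 lacked a K120R peak and 1, this one, lacked a WT untreated peak. Its RE, listed for BTG4, is shown beside that of MIR34A with positions 3, 8, 13 and 18 in capitals, and the mature miRNA with its seed in capitals.
MIR34B and MIR34C RE: agGcatgCctagAcatgAac
miR-34b-5p: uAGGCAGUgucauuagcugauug
The RE had 2 mismatches and 2 G/C bps at the 4 positions, against 0 and 3 for MIR34A, so it held fewer G/C bps there than the RE with the K120R peak. The seed of miR-34a-5p recurs in miR-34b-5p at bases 3 to 9, 1 base further along.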

How the data were processed

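Reads of 75 bp were mapped by the authors to hg19 (GRCh37) with BWA-MEM. MACS 2.1.1.20160309 then called the peaks of all 4 libraries, each against an input, with q-values up to 0.05. The deposited pileup is a signal, the fragments over the summit once the authors' software had scaled ChIP and input to equal depth, downwards. The deposited fold enrichment is a ratio to the local background, with 1 added to both terms, and the authors gave p and q values as −log10. Narrow-peak and summit files were not used.

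Fragments were recovered by undoing the scaling, and all pileups then came out whole within 0.02. Genes came from GENCODE release 44 on GRCh37, and REs and their positions, but no values, from the study's list, of which 1356 entries were used here. Peaks overlapped when they shared at least 1 bp. Intervals are exact Poisson for fragments and conditional binomial for ratios. The RE search and the overlaps were tested on simulated data. Python 3.11.15, numpy 2.4.6, scipy 1.17.1, pandas 2.3.3 and matplotlib 3.10.9 were used. Named genes are the members with every peak in their windows and the miRNAs matched inside them, without MIR1204. Also named are the 5 other non-coding genes with the largest WT Tet-treated fold enrichment and the 3 nearest listed REs of each member RE. The members and lists were chosen with earlier results of these data known. The labels give the Tet dose per µl and the methods per ml, so it is not stated here.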

Additional observations from a re-analysis of the deposited data

How the results depend on the processing

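Each count at the 4 genes was recomputed with minimum -log10 q values of 5 and 10, a fold enrichment of at least 5, windows of 10 and 100 kb, and 2 other rules of overlap (summits within 200 bp, and 50% of the shorter peak). The K120R Tet-treated peaks went from 7 to 4 at a -log10 q of at least 10, which removed the LINC-PINT peak, the weaker PVT1 peak and that at the NEAT1 start. The WT untreated peaks went from 4 to 3, without that of LINC-PINT. The WT Tet-treated peaks went from 5 to 9 with a window of 100 kb. The median percentile of the strongest WT peak of each gene, 97.2, was 99.0 by pileup, and 97.0 with a window of 10 kb, which leaves out MIR34A. Of the other non-coding genes, 22 rather than 12 had a WT Tet-treated peak within 100 kb. All other counts stayed within 1.5 times the value given. Dividing fragments by ChIP tags, an alternative chosen after seeing the data, gave ratios of K120R Tet-treated to WT untreated of 0.465 for NEAT1, 0.701 for MIR34A, 1.20 for LINC-PINT and 2.45 for PVT1. No paired analysis was possible because each condition had 1 library. Peaks with few fragments, such as those called with K120R alone (12 to 21), are the least certain.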
